A study of Danio rerio with 12 samples.

Results

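In zebrafish larvae of 4 genotypes, 6 secreted or signalling genes of the inflammatory response were followed. They were the cytokine genes *il1b* (ENSDARG00000098700) and *tnfa* (ENSDARG00000009511), the chemokine gene *cxcl8a* (ENSDARG00000104795), the matrix metalloproteinase genes *mmp9* (ENSDARG00000042816) and *mmp13a* (ENSDARG00000012395), and the feedback inhibitor gene *socs3a* (ENSDARG00000025428). They were picked by gene identifier, not by a measured value, though earlier results of these data were known when they were chosen. They make up 6 of the 32271 features in the expression table. The larvae were double mutants (*zbtb24* mk22/mk22 and *mda5* mk29/mk29), *zbtb24* mutants (mk22/mk22, *mda5* WT), *mda5* mutants (mk29/mk29, *zbtb24* WT) or WT at both genes, and each genotype had 3 libraries of polyadenylated RNA from pools of 10 larvae at 3 weeks of age. The sample labels call *mda5* by its other name, *ifih1*. In these libraries each mutation was present as 1 allele, mk22 being a large deletion in *zbtb24* and mk29 a small deletion in *mda5*, and the wild-type fish were AB. The paper also studied another *zbtb24* allele, which is not among these libraries. *zbtb24* encodes a zinc finger protein mutated in ICF syndrome, an immunodeficiency with DNA methylation loss at centromeric repeats, and *mda5* encodes a cytosolic sensor of long double-stranded RNA. The comparisons ask how loss of *zbtb24* bears on inflammatory transcripts with *mda5* present and with *mda5* absent.

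In vertebrates, Il1b and Tnfa are early cytokines of inflammation. Macrophages are a main source, and both act through receptors that feed into the NF-kB pathway. Cxcl8 chemokines, known in humans as IL-8, draw neutrophils along a gradient through the receptors Cxcr1 and Cxcr2. Mmp9 (gelatinase B) and Mmp13 (collagenase 3) cut matrix proteins, and both genes are widely used in zebrafish as markers of wounded or inflamed epithelium. Socs3 is induced by STAT3 and shuts off JAK kinases downstream of receptors of the interleukin 6 family.

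Of the 6 genes, *il1b* and *tnfa* also had qRT-PCR primers in the study's primer list. These 20-base oligonucleotides are shown because they define the parts of each transcript that the study's own cytokine assay reads, and capitals are not used since no base in them is singled out. They are written 5′ to 3′.
il1b forward: gacttcgcagcacaaaatga
il1b reverse: cacttcacgctcttggatga
tnfa forward: cagggcaatcaacaagatgg
tnfa reverse: tggtcctggtcatctctcca
The *il1b* primers hold 9 and 10 G or C bases, and the *tnfa* primers hold 10 and 11.

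The labels were checked first. The *zbtb24* gene (ENSDARG00000075533) has a single value per library for the gene as a whole. Which exons gave it is not known, so it does not check the deletion. The value was higher where *zbtb24* was mutated: it ranged over 1.23 to 1.47 FPKM in double mutants and 1.06 to 1.74 FPKM in *zbtb24* mutants, against 0.469 to 0.538 FPKM in *mda5* mutants and 0.348 to 0.587 FPKM in WT. The paper reports that *zbtb24* transcript was not detectable in homozygous mutants by qRT-PCR. The cause of the higher values here was not tested. FPKM are sequenced fragments per kilobase of transcript, scaled for the size of the library. CDCA7 (ENSDARG00000077620), a gene known to depend on ZBTB24 in human and mouse cells, was chosen for this check after its values were seen. It was at 0.0445 to 0.101 FPKM in double mutants and 0.0118 to 0.0676 FPKM in *zbtb24* mutants, against 2.53 to 2.83 FPKM in *mda5* mutants and 2.56 to 3.48 FPKM in WT, so the *zbtb24* labels fit in all 12 libraries. The paper itself reports that *cdca7* was almost lost in *zbtb24* mutants, from these RNA-seq data and by qRT-PCR, so this check is not independent of the paper. IFIH1 (*mda5*, ENSDARG00000018553) had 0.381 to 0.573 FPKM in double mutants and 1.35 to 1.87 FPKM in *zbtb24* mutants, and 0.354 to 0.613 FPKM in *mda5* mutants against 0.732 to 0.820 FPKM in WT. GEO gives the source as fin, whereas the study's design describes pools of larvae. Muscle markers summed to between 3417 and 5643 FPKM and liver markers to between 2286 and 8292 FPKM per library, so tissue other than fin was present in all of them. Between libraries of one genotype Pearson's r across genes was 0.911 to 0.957, with the lowest value in *zbtb24* mutants.

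The 6 genes spanned a wide range of levels. Averaged over the 12 libraries, *mmp9* had 26.6 FPKM, *mmp13a* 11.9 FPKM, *cxcl8a* 5.25 FPKM, *il1b* 0.893 FPKM, *tnfa* 0.159 FPKM and *socs3a* 0.148 FPKM. FPKM are given per length, so these levels can be set side by side. *mmp9* stood above 90.8% of the features with any signal, and *socs3a* above 15.1%. The 2 lowest, *tnfa* and *socs3a*, lay under the minimum mean of 0.5 FPKM that was required for the test across all features. They were compared gene by gene with an exact permutation test, which with 3 libraries against 3 cannot give a p-value below 0.1. Fragment counts are unknown, so for these low genes counting error cannot be told apart from differences between pools.

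**Figure D1:**
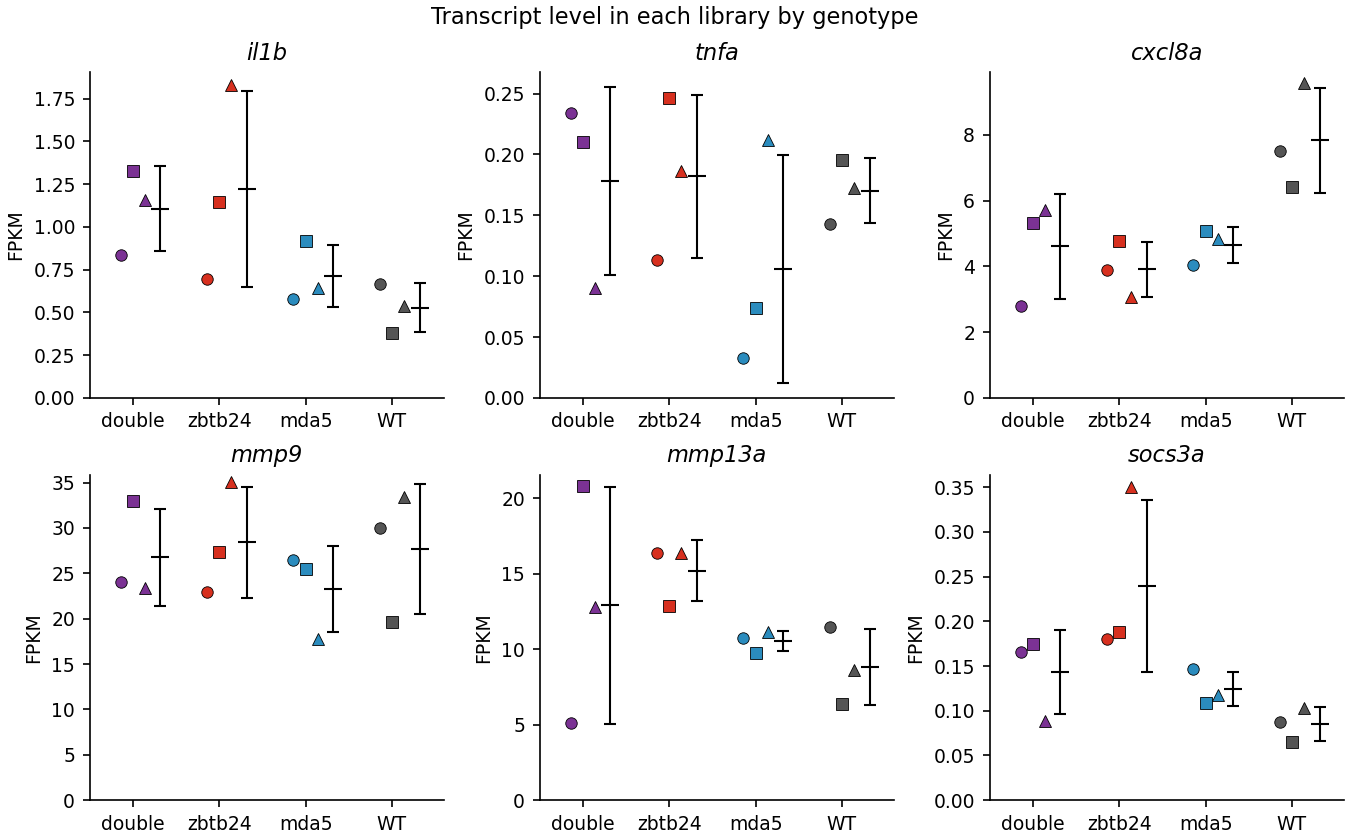
Level of each gene in FPKM (vertical axes, linear, starting at 0) in the 12 libraries, by genotype. Circles, squares and triangles are replicates 1, 2 and 3, and the black bar beside them is the mean ± SD (n = 3). In *cxcl8a* all 9 mutant libraries, at 2.79 to 5.71 FPKM, sit below the 3 WT libraries, at 6.43 to 9.57 FPKM, and in *socs3a* the 3 *zbtb24* mutant libraries hold the 3 highest values.

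*zbtb24* mutants were first compared with WT. *cxcl8a* fell to 0.50 times the WT mean, and it was the single gene of the 4 tested that passed the limma test at an adjusted p under 0.05. *il1b* averaged 2.32 times, *mmp13a* 1.72 times and *socs3a* 2.82 times the WT mean, with all 3 *zbtb24* mutant libraries above all 3 WT libraries. Of these, *il1b* and *mmp13a* did not pass the limma test, and the exact test of *socs3a* could not pass with 3 libraries against 3. *mmp9* and *tnfa* overlapped between the genotypes. For scale, 11.6% of the 21623 features tested passed in this comparison, 6.65% as lower, and 34.1% did not overlap between the genotypes, 15.6% being higher and 18.5% lower in all *zbtb24* mutant libraries. The 1 gene called of 4 and the 4 without overlap of 6 are read against those large shares. *tnfa* and *socs3a* lie under the minimum level of the features behind these shares. For them such shares are only a rough scale, here and in the comparisons below. RNA came from whole pools, so in every result here fewer cells of a type and less RNA per cell cannot be told apart.

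Among the ligands, *il1b* had 0.693, 1.15 and 1.83 FPKM in *zbtb24* mutants, against 0.667, 0.379 and 0.539 FPKM in WT. The genotypes did not overlap, but the lowest *zbtb24* mutant and the highest WT library were close to each other. On the log2(FPKM + 0.5) scale, which understates changes of low genes, the change was 0.70 ± 0.24 (SE, 95% interval 0.18 to 1.23, limma adjusted p = 0.0753). Leaving out *zbtb24* mutant replicate 1, the lowest of its group, made the change 0.94 and the limma adjusted p 0.0332. No other single omission did this, and over all 12 omissions the limma adjusted p lay between 0.0332 and 0.196.

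*tnfa* had 0.113, 0.247 and 0.186 FPKM in *zbtb24* mutants, against 0.143, 0.195 and 0.173 FPKM in WT. The WT libraries lay within the range of the mutants. The group means were 0.182 ± 0.067 and 0.170 ± 0.026 FPKM (SD, n = 3 each, two-sided exact permutation p = 0.9).

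*cxcl8a* had 3.90, 4.76 and 3.08 FPKM in *zbtb24* mutants, against 7.50, 6.43 and 9.57 FPKM in WT. All mutant libraries were lower, and the log2 change was -0.92 ± 0.24 (SE, 95% interval -1.45 to -0.38, limma adjusted p = 0.0396). The change kept its direction in every alternative fit, but the call was narrow. The limma adjusted p lay between 0.0516 and 0.150 when any one of 9 libraries was left out, namely double mutant replicate 2 or any *mda5* mutant or *zbtb24* mutant replicate or WT replicate 1 or 3. It stayed under 0.05 without double mutant replicate 1 or 3 or without WT replicate 2. When only the *zbtb24* mutant and WT libraries entered the fit, it was 0.0908.

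Among the enzymes, *mmp9* had 22.9, 27.3 and 35.03 FPKM in *zbtb24* mutants, against 30.0, 19.7 and 33.5 FPKM in WT. The ranges almost coincided, with a log2 change of 0.05 ± 0.24 (SE, 95% interval -0.48 to 0.58, limma adjusted p = 0.912). *mmp13a* had 16.4, 12.9 and 16.4 FPKM in *zbtb24* mutants, against 11.5, 6.38 and 8.63 FPKM in WT. It was higher in all 3 mutant libraries, yet the log2 change of 0.78 ± 0.39 did not pass (SE, 95% interval -0.08 to 1.64, limma adjusted p = 0.195). Its error was the largest of the 4 genes tested and was set in part by double mutants, where *mmp13a* ranged over 5.09 to 20.8 FPKM. Without double mutant replicate 1 the error of the *zbtb24* mutant change was 0.22 and the limma adjusted p was 0.0542.

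The inhibitor gene *socs3a* had 0.181, 0.188 and 0.350 FPKM in *zbtb24* mutants, against 0.0878, 0.0646 and 0.103 FPKM in WT. All mutant libraries were higher (two-sided exact permutation p = 0.1, the smallest possible). When the minimum level was dropped so that *socs3a* entered the test across all features, the log2 change was 0.33 (limma adjusted p = 0.0473), and with a pseudocount of 0.1, an alternative added after the values were seen, it was 0.85 (limma adjusted p = 0.0421). *tnfa* gave 0.02 and 0.04 in the same fits (limma adjusted p = 0.953 and 0.978).

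The same loss of *zbtb24* was then examined in larvae without *mda5*, as double against *mda5* mutants. None of the 4 tested genes passed or had an unadjusted p under 0.05, and all 6 genes overlapped between the genotypes. In this comparison 0.134% of features were called, 12.3% had an unadjusted p under 0.05 and 21.2% did not overlap. Features under the minimum level, among them *tnfa* and *socs3a*, are not part of these shares. *il1b* had 0.835, 1.33 and 1.16 FPKM in double mutants, against 0.580, 0.916 and 0.641 FPKM in *mda5* mutants. Only the lowest double mutant library lay below the highest *mda5* mutant library, and the log2 change was 0.40 ± 0.24 (SE, 95% interval -0.12 to 0.93, limma adjusted p = 0.515).

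*cxcl8a* had 2.79, 5.33 and 5.71 FPKM in double mutants, against 4.03, 5.07 and 4.84 FPKM in *mda5* mutants. The means were 4.61 ± 1.59 and 4.65 ± 0.55 FPKM (SD, n = 3 each), and the interval of the log2 difference was -0.60 to 0.48 (limma adjusted p = 0.944). *mmp13a* had 5.09, 20.8 and 12.8 FPKM in double mutants, against 10.8, 9.78 and 11.1 FPKM in *mda5* mutants. The double mutant libraries reached both below and above the narrow *mda5* mutant range, and the log2 change was 0.08 ± 0.39 (SE, 95% interval -0.78 to 0.94, limma adjusted p = 0.954).

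*mmp9* had 24.1, 33.0 and 23.4 FPKM in double mutants, against 26.5, 25.5 and 17.8 FPKM in *mda5* mutants (log2 change 0.20 ± 0.24, SE, limma adjusted p = 0.758). *tnfa* had 0.234, 0.211 and 0.0903 FPKM in double mutants, against 0.0329, 0.0737 and 0.212 FPKM in *mda5* mutants. Both genotypes spanned low and high values (two-sided exact permutation p = 0.3). *socs3a* had 0.165, 0.175 and 0.0890 FPKM in double mutants, against 0.146, 0.109 and 0.117 FPKM in *mda5* mutants (two-sided exact permutation p = 0.7).

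**Figure D2:**
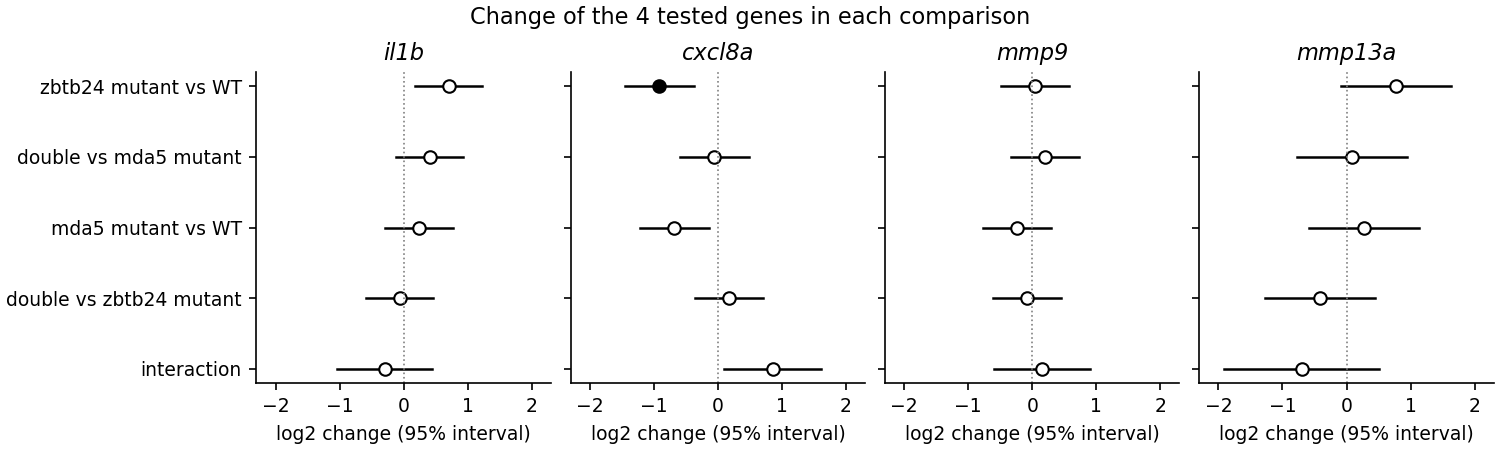
Log2 change of the 4 tested genes (horizontal axes, log2 of FPKM + 0.5) in 4 pairwise comparisons and in the interaction, with 95% intervals from limma. The filled circle is the single change with an adjusted p under 0.05, *cxcl8a* in *zbtb24* mutants against WT at -0.92. The interval of the *cxcl8a* interaction, 0.10 to 1.62, lies above 0 before adjustment.

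Loss of *mda5* was compared in the same way. In *mda5* mutants against WT none of the 4 tested genes passed, where 0.00462% of features did and 20.3% did not overlap (12.6% lower and 7.70% higher in *mda5* mutants). *cxcl8a* was lower in all 3 *mda5* mutant libraries than in any WT library, at 0.594 times the WT mean, with a log2 change of -0.68 ± 0.24 (SE, unadjusted p = 0.0175, limma adjusted p = 0.333). *socs3a* was higher in all 3 *mda5* mutant libraries, at 1.46 times the WT mean (two-sided exact permutation p = 0.1). The log2 changes of *il1b*, *mmp9* and *mmp13a* were 0.24, -0.24 and 0.28 (limma adjusted p from 0.647 to 0.751), and *tnfa* averaged 0.106 ± 0.094 FPKM in *mda5* mutants against 0.170 ± 0.026 FPKM in WT (SD, n = 3 each).

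In double against *zbtb24* mutants none of the 4 passed either or had an unadjusted p under 0.05, where 0.00462% of features passed and 14.4% had such a p. The changes were -0.06 for *il1b*, 0.17 for *cxcl8a*, -0.08 for *mmp9* and -0.42 for *mmp13a* on the log2 scale (limma adjusted p from 0.598 to 0.918). *socs3a* was the single gene without overlap, being lower in all 3 double mutant libraries at 0.597 times the *zbtb24* mutant mean (two-sided exact permutation p = 0.1). Of the features tested, 21.4% did not overlap and 9.68% were lower in all 3 double mutant libraries, but *socs3a* was not one of those tested. The gap was small, from 0.175 FPKM in the highest double mutant to 0.181 FPKM in the lowest *zbtb24* mutant library. In the fits without a minimum level the log2 change was -0.20 at the pseudocount of 0.5 and -0.47 at 0.1 (limma adjusted p = 0.386 and 0.396).

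Double mutants were also set against WT, where 0.402% of features were called and 18.6% did not overlap (9.27% higher and 9.32% lower in double mutants). *il1b* was at 2.095 times the WT mean with no overlap (log2 change 0.64 ± 0.24, SE, unadjusted p = 0.0212, limma adjusted p = 0.326). *cxcl8a* was at 0.589 times the WT mean with no overlap (log2 change -0.74 ± 0.24, SE, unadjusted p = 0.0114, limma adjusted p = 0.269). The remaining genes overlapped. *cxcl8a* was thus lower in each of the 9 mutant libraries, at 2.79 to 5.71 FPKM, than in any of the 3 WT libraries, at 6.43 to 9.57 FPKM. Over all tested features, 3.23% were lower in all 9 mutant libraries than in WT. The 3 comparisons with WT share the same WT libraries. Summed over all features, FPKM split in the same way, at 1.03e+07 to 1.22e+07 in WT libraries and 5.81e+06 to 9.57e+06 in mutant libraries. The 4 features with the highest means held 84.2% to 89.9% of this sum. What part this has in the level of *cxcl8a* was not tested.

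The interaction, obtained by subtracting the effect of *zbtb24* loss in *mda5* WT larvae from its effect in *mda5* mutant larvae, tested directly whether the effect of *zbtb24* loss differed with the *mda5* genotype. None of the 4 tested genes passed, and neither did any of the 21623 features by limma (0 called), while 25.1% of features had an unadjusted p under 0.05. *cxcl8a* had an interaction of 0.86 ± 0.34 (SE, unadjusted p = 0.0305, limma adjusted p = 0.161). The limma adjusted p of this value lay between 0.113 and 0.329 when single libraries were left out. Without WT replicate 2, 2161 features passed for the interaction, and *cxcl8a* had 0.98 there (limma adjusted p = 0.113). The interactions of *il1b*, *mmp9* and *mmp13a* were -0.30 ± 0.34, 0.16 ± 0.34 and -0.70 ± 0.55 (SE, limma adjusted p = 0.610, 0.807 and 0.449). In the fits without a minimum level *socs3a* had -0.29 ± 0.12 at the pseudocount of 0.5 and -0.75 ± 0.29 at 0.1 (SE, limma adjusted p = 0.209 and 0.189).

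Because *il1b* differed in the same direction in both *mda5* backgrounds, the effect of *zbtb24* averaged over them was added after the values were seen. It was 0.55 ± 0.17 for *il1b* (SE, 95% interval 0.18 to 0.92, unadjusted p = 0.00753, limma adjusted p = 0.0941), against 3.52% of features called. *il1b* passed without *zbtb24* mutant replicate 1 (0.67, limma adjusted p = 0.0429). Over all omissions of a single library this effect of *il1b* ranged from 0.43 to 0.67 and its limma adjusted p from 0.0429 to 0.185. For *cxcl8a* the averaged effect was -0.49 ± 0.17 (limma adjusted p = 0.136), for *mmp13a* 0.43 ± 0.27 and for *mmp9* 0.13 ± 0.17 (SE, limma adjusted p = 0.407 and 0.707). In the test of any difference among the 4 genotypes, which called 1.60% of features, the limma adjusted p was 0.143 for *cxcl8a*, 0.195 for *il1b*, 0.491 for *mmp13a* and 0.761 for *mmp9*.

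Ordered by level, *il1b* averaged 1.22 ± 0.57 FPKM in *zbtb24* mutants, 1.11 ± 0.25 FPKM in double mutants, 0.712 ± 0.179 FPKM in *mda5* mutants and 0.528 ± 0.144 FPKM in WT (SD, n = 3 each), and each genotype overlapped with the next. *mmp13a* had the same order, at 15.2 ± 2.0, 12.9 ± 7.8, 10.5 ± 0.69 and 8.82 ± 2.54 FPKM (SD, n = 3 each), again with every neighbour overlapping. *socs3a* had that order too, at 0.240 ± 0.096, 0.143 ± 0.047, 0.124 ± 0.019 and 0.0851 ± 0.0193 FPKM (SD, n = 3 each). There the *zbtb24* mutants did not overlap with the double mutants, nor the *mda5* mutants with WT. *cxcl8a* ran the other way, with WT highest and *zbtb24* mutants lowest, and WT was the only step without overlap. For *mmp9* and *tnfa* no 2 neighbouring genotypes were apart.

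The genes were also compared library by library. Over the 12 libraries, 15 pairs of genes were examined and none had a correlation that passed 0.05 after adjustment over the 15. The highest was between *il1b* and *socs3a* (Pearson's r = 0.74, Spearman's rho = 0.59, permutation p = 0.0061 and 0.045, adjusted p = 0.0915 and 0.195). It fell to r = 0.40 when the 2 libraries farthest from the median of *il1b* were left out. *cxcl8a* and *socs3a* had r = -0.69 and rho = -0.78 (permutation p = 0.0126 and 0.00393, adjusted p = 0.0943 and 0.0589), and r = -0.84 without the 2 farthest libraries. Genotype means enter these values. With each genotype's mean removed, r was 0.56 for *il1b* with *socs3a*, -0.45 for *cxcl8a* with *socs3a*, and 0.69 for *il1b* with *mmp9*, the highest of the 15. *tnfa* followed none of the other 5 genes, with r between -0.12 and 0.23.

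*zbtb24* mutant replicate 3 had the highest *il1b*, *mmp9* and *socs3a* of all 12 libraries, at 1.83, 35.03 and 0.350 FPKM. It also had the highest sum over 8 macrophage marker features, at 41.6 FPKM, where the other *zbtb24* mutant libraries had 19.3 and 20.5 FPKM, double mutants 20.6 to 22.6 FPKM, *mda5* mutants 18.7 to 21.2 FPKM and WT 17.2 to 22.9 FPKM. Apart from marco and csf1ra, all of these features carry the one symbol MFAP4, and mpeg1.1 was not matched. No macrophage marker feature was at 0 in all libraries, and 0 of the 7 tested passed between *zbtb24* mutants and WT in limma, with 0 at an unadjusted p under 0.05. Without this library the log2 changes in *zbtb24* mutants against WT were 0.46 for *il1b* (limma adjusted p = 0.196), -0.77 for *cxcl8a* (0.103), 0.72 for *mmp13a* (0.325) and -0.11 for *mmp9* (0.805). The 5 neutrophil marker features summed to 152 to 441 FPKM in double mutants, 183 to 221 FPKM in *zbtb24* mutants, 191 to 217 FPKM in *mda5* mutants and 181 to 404 FPKM in WT, and 0 of the 3 tested passed in that comparison, with 1 at an unadjusted p under 0.05. Most of the neutrophil sum was lyz, which averaged 200 FPKM over the 12 libraries, and mpx was not matched. The 4 epidermal markers summed to 4479 to 4699 FPKM in double mutants, 3135 to 4559 FPKM in *zbtb24* mutants, 2517 to 3020 FPKM in *mda5* mutants and 3136 to 4096 FPKM in WT. Of these 4, the keratin genes cyt1 and cyt1l passed between *zbtb24* mutants and WT, with log2 changes of 1.53 and 2.36 (limma adjusted p = 0.042 and 0.0383). In that comparison 1063 of 21623 features were called higher. Among markers of other tissues, those that passed between *zbtb24* mutants and WT were all of retina. Of 5 retina markers 2 fell, beside 6.65% of all features called lower. All 5 retina changes were below 0 (median -0.56), with sums of 303 to 545 FPKM in *zbtb24* mutants against 587 to 764 FPKM in WT. The 3 T cell and 3 liver markers all had changes below 0 (medians -0.47 and -0.42), none of which passed. The same held for 3 skeletal muscle and 2 osteoclast markers (medians -0.23 and -0.41), while the 1 exocrine pancreas marker had 0.09. The T cell sums were 3.89 to 5.83 FPKM in *zbtb24* mutants against 6.54 to 8.54 FPKM in WT, and the liver sums 2286 to 5273 FPKM in *zbtb24* mutants against 4509 to 5978 FPKM in WT. The part of these cell types in the levels of the 6 genes was not tested.

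Across the 21623 tested features, the 2 whose levels over the 12 libraries were most like the mean z-score of the 6 genes were TAF1L (ENSDARG00000035330) and IRF8 (ENSDARG00000056407), both with r = 0.918. IRF8 averaged 4.68 FPKM in double mutants, 5.599 FPKM in *zbtb24* mutants, 3.98 FPKM in *mda5* mutants and 4.32 FPKM in WT. Set in order of r with each gene, the others of the 6 seldom stood near the top. The nearest was *il1b* at place 518 of 21622 for *mmp13a*, and next *il1b* at place 934 of 21623 for *socs3a*. These correlations are over 12 libraries that share genotypes and carry no test.

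Other genes of the same pathways were counted from lists of cytokines, receptors, NF-kB and STAT3 pathway members, inflammasome genes, metalloproteinases with their inhibitors, and AP-1 factors. In *zbtb24* mutants against WT, 16 of the 91 tested genes other than *il1b*, *cxcl8a*, *mmp9* and *mmp13a* passed, 11 higher and 5 lower, or 17.6%, beside 11.6% of all features. In double against *mda5* mutants 0 of the 91 passed (limma), beside 0.134% of all features, and 12 (13.2%) had an unadjusted p under 0.05, beside 12.3% of all features. In the interaction 0 passed (limma) and 19 (20.9%) had an unadjusted p under 0.05, beside 25.1% of all features, so both shares were near or below the background. The 16 calls depended on single libraries. Of them, 7 remained without *zbtb24* mutant replicate 3 and 2 without WT replicate 3 (nfkb1 and TYK2), and between 6 and 13 with any other library left out. When only the *zbtb24* mutant and WT libraries entered the fit, 5 remained.

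**Figure D3:**
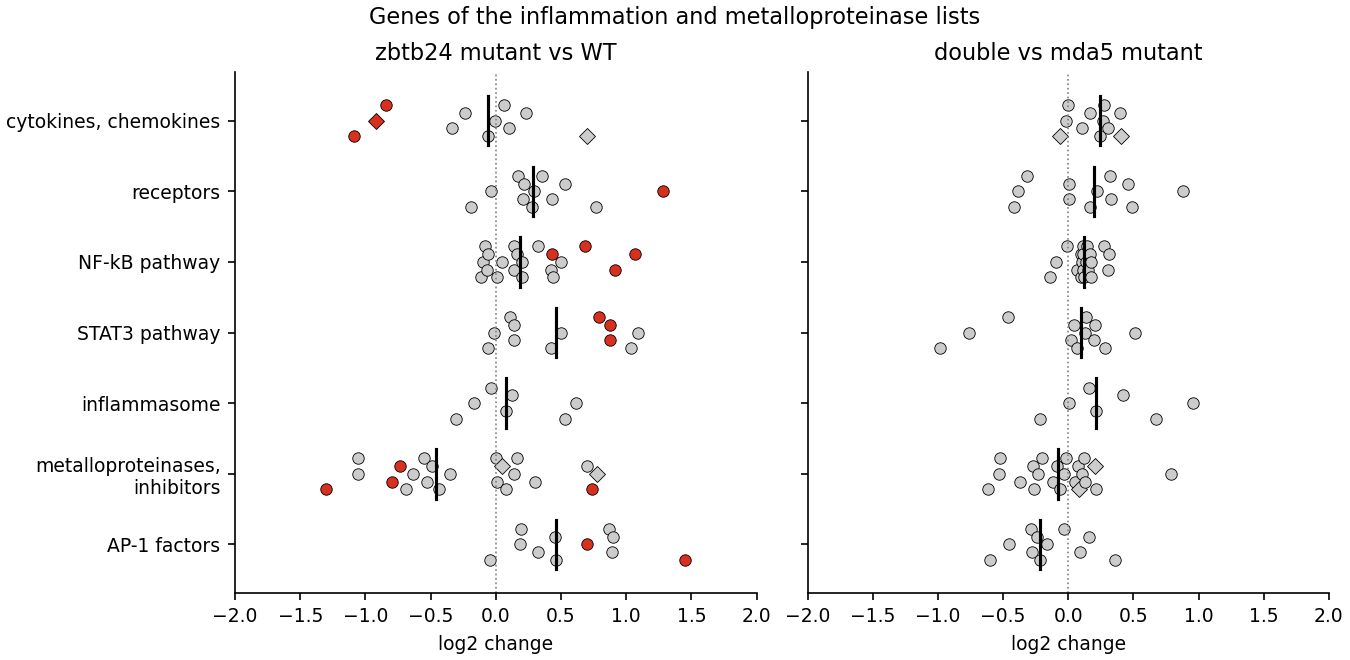
Log2 change (horizontal axes, log2 of FPKM + 0.5) of each tested gene in 7 lists, in *zbtb24* mutants against WT (left) and in double against *mda5* mutants (right). Circles are listed genes, diamonds are *il1b*, *cxcl8a*, *mmp9* and *mmp13a*, red marks a limma adjusted p under 0.05, and black bars are medians of the circles. Red points appear in the left panel alone, where 16 of 91 circles and 1 of 4 diamonds passed.

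Of all 21623 features tested, 1063 rose and 1439 fell in *zbtb24* mutants against WT, and the counts of each list are read beside these. Among 9 other cytokine and chemokine genes, 2 fell and 0 rose in that comparison, with a median log2 change of -0.06 beside -0.0044 over all features. Both were ligands. cxcl8b.1, a second zebrafish Cxcl8, had 1.62, 2.40 and 3.23 FPKM in *zbtb24* mutants, against 7.10, 4.61 and 5.16 FPKM in WT. All mutant libraries were lower, by -1.09 ± 0.27 on the log2 scale (SE, limma adjusted p = 0.0343). csf1b, a growth factor of the macrophage lineage and of pigment cells, had 3.06 ± 0.33 FPKM in *zbtb24* mutants against 5.89 ± 0.95 FPKM in WT (SD, n = 3 each), or -0.84 ± 0.14 on the log2 scale (SE, limma adjusted p = 0.0116). Of 12 receptor genes 1 rose and 0 fell. il22ra2, which in mammals encodes a soluble decoy receptor for interleukin 22, had 3.31 ± 0.50 FPKM in *zbtb24* mutants against 1.08 ± 0.34 FPKM in WT (SD, n = 3 each, log2 change 1.28 ± 0.24, SE, limma adjusted p = 0.0148). Over the 12 fits with a single library left out, the call held in 7 for cxcl8b.1 and in 11 each for csf1b and il22ra2.

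In the NF-kB pathway 4 of 20 genes rose and 0 fell, beside 1063 of all 21623 features that rose and 1439 that fell. The median change of the list was 0.18. IRAK3, an inhibitor of interleukin 1 and Toll-like receptor signalling in mammals, changed by 1.07 ± 0.20 (SE, limma adjusted p = 0.0162). TNFAIP3, an enzyme also known as A20 that shuts off NF-kB, changed by 0.92 ± 0.19 (SE, limma adjusted p = 0.0192). nfkb1, which encodes an NF-kB subunit, changed by 0.69 ± 0.12 on the log2 scale (SE, limma adjusted p = 0.0129), and the fourth was IKBKB, a kinase that activates the pathway. With single libraries left out, IKBKB kept its call in 1 of 12 fits, TNFAIP3 in 9, IRAK3 in 11 and nfkb1 in 12. In the STAT3 pathway 3 of 12 rose and 0 fell, with a median of 0.46. STAT3 had 22.2 ± 1.1 FPKM in *zbtb24* mutants against 11.9 ± 0.92 FPKM in WT (SD, n = 3 each), or 0.88 ± 0.16 on the log2 scale (SE, limma adjusted p = 0.0135). TYK2, a JAK family kinase, changed by 0.88 ± 0.12 (SE, limma adjusted p = 0.00538), and the transcription factor gene CEBPB by 0.79 ± 0.23 (SE, limma adjusted p = 0.0488). Of the STAT3 pathway calls, that of CEBPB held in 1 of 12 such fits, STAT3 in 11 and TYK2 in 12. *socs3a* encodes a feedback inhibitor of this pathway. Of 7 inflammasome and caspase genes, whose products process Il1b, 0 passed (limma), and 2 had an unadjusted p under 0.05, as did 31.4% of all features.

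AP-1 factors, which drive metalloproteinase genes in mammals, had 2 of 11 genes that rose and 0 that fell, with a median of 0.46. Of all 21623 features, 1063 rose and 1439 fell in the same comparison. FOSL1 had 4.56 ± 1.15 FPKM in *zbtb24* mutants against 1.34 ± 0.34 FPKM in WT (SD, n = 3 each, log2 change 1.45 ± 0.34, SE, limma adjusted p = 0.027), and BATF3 changed by 0.70 ± 0.19 (SE, limma adjusted p = 0.0415). These calls held in 9 and 5 of 12 fits with a single library left out. In double against *mda5* mutants the median of the AP-1 list was -0.22 and that of the STAT3 list 0.10, beside 0.0165 over all features. There the NF-kB list had 0.12 (17 of 20 genes above 0) and the receptor list 0.20 (9 of 12). The cytokine list had 0.24, the inflammasome list 0.21 and the metalloproteinase list -0.08. In *mda5* mutants against WT the AP-1 median was 0.36 (9 of 11 above 0), beside -0.018 over all features, and no AP-1 gene passed. The interaction had a median of -0.74 over the AP-1 list and -0.59 over the STAT3 list, against 0.40 over the metalloproteinase list (15 of 20 genes above 0) and 0.30 over the cytokine list (9 of 9 above 0), beside 0.0368 over all features. Over the NF-kB, receptor and inflammasome lists the interaction medians were -0.05, -0.13 and 0.06. At an unadjusted p under 0.05 were 2 of 11 AP-1, 3 of 12 STAT3 pathway, 5 of 20 metalloproteinase and 2 of 9 cytokine genes, beside 25.1% of all features, so these counts lay near the background. No tissue marker passed for the interaction either. Its median was 1.43 over 3 liver markers (3 of 3 at an unadjusted p under 0.05), 0.83 over 3 T cell markers (2 of 3) and 0.60 over 4 epidermal markers (3 of 4). Skeletal muscle had 1 of 3 and osteoclasts 1 of 2 at such a p, and macrophages, neutrophils, retina and exocrine pancreas had 0.

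Among 20 other metalloproteinase and inhibitor genes, 1 rose and 3 fell in *zbtb24* mutants against WT, and the median log2 change was -0.46. Of all 21623 features, 1063 rose and 1439 fell. mmp13b, the second zebrafish collagenase of this kind, had 10.6, 7.16 and 3.27 FPKM in *zbtb24* mutants, against 20.2, 11.6 and 18.7 FPKM in WT. All mutant libraries were lower (log2 change -1.30 ± 0.38, SE, limma adjusted p = 0.0492). With single libraries left out, the mmp13b call held in 2 of 12 fits (limma adjusted p up to 0.162). MMP14 (ENSDARG00000008388), a membrane-bound collagenase, changed by -0.80 ± 0.20 (SE, limma adjusted p = 0.0335). Another tested feature with the symbol MMP14, ENSDARG00000002235, did not pass. The latter averaged 63.2 FPKM over the 12 libraries, and the former 73.7 FPKM. MMP16, another membrane-bound member, changed by 0.74 ± 0.20 (SE, limma adjusted p = 0.0396), and mmp23bb was the other gene that fell. The calls of MMP14 (ENSDARG00000008388), MMP16 and mmp23bb held in 7, 4 and 2 of the 12 fits.

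**Figure D4:**
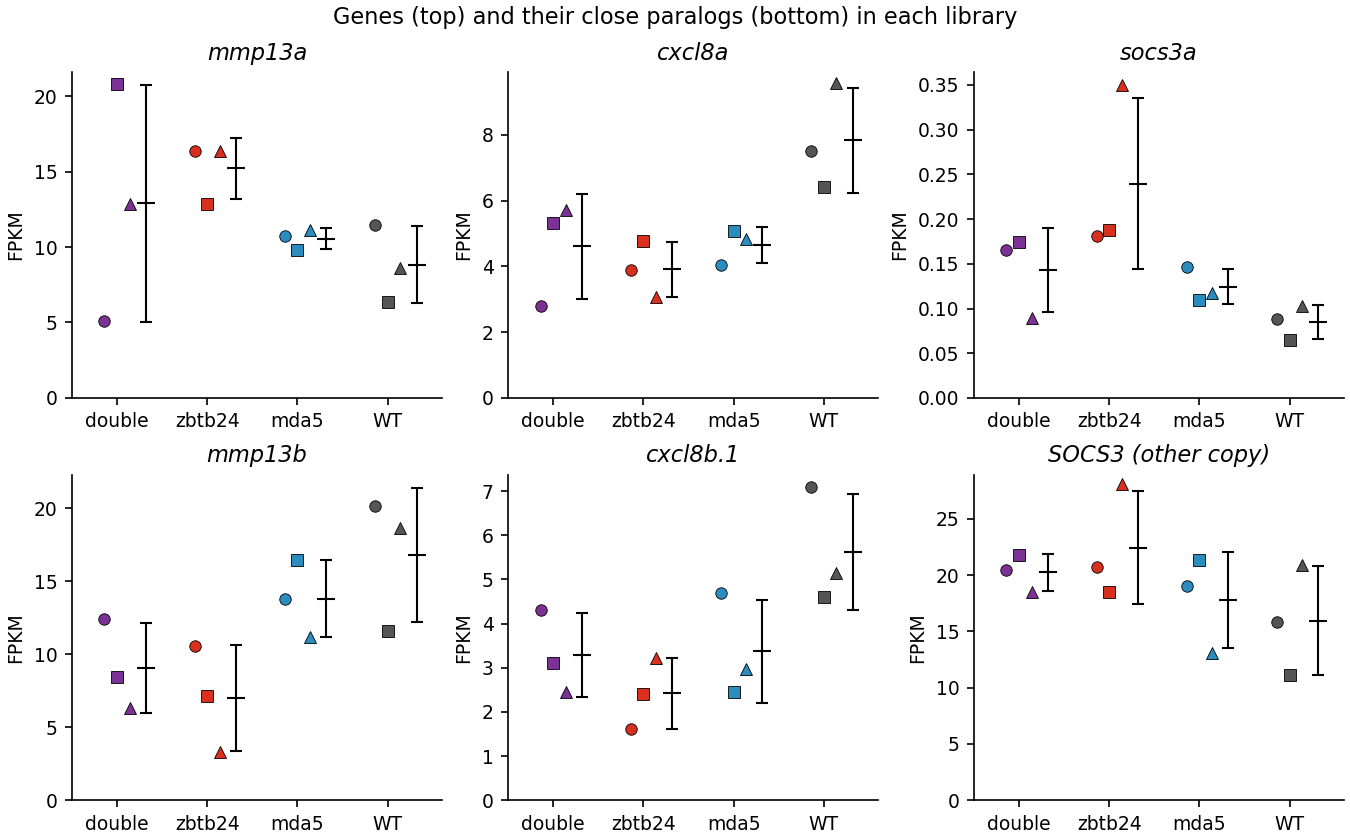
Level in FPKM (vertical axes, linear, starting at 0) of *mmp13a*, *cxcl8a* and *socs3a* (top) and a paralog of each (bottom) in the 12 libraries. Circles, squares and triangles are replicates 1, 2 and 3, and the black bar is the mean ± SD (n = 3). *mmp13a* is higher and mmp13b lower in all 3 *zbtb24* mutant libraries than in WT, while *cxcl8a* and cxcl8b.1 are both lower.

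Close paralogs of 3 of the genes were set beside them within each library, a comparison chosen after the values were seen. The ratio of *mmp13a* to mmp13b was 1.55, 1.80 and 5.003 in *zbtb24* mutants, against 0.568, 0.551 and 0.462 in WT. *mmp13a* was thus the more abundant copy in each *zbtb24* mutant library and mmp13b in each WT library, a 4.59-fold difference in the ratio. Both genes were already apart between these genotypes, in opposite directions, so the ratio had to separate. Its two-sided exact permutation p of 0.1, the smallest possible, was fixed by that and adds no support. In double mutants the ratio was 0.411, 2.45 and 2.04, against 0.778, 0.594 and 0.995 in *mda5* mutants (two-sided exact permutation p = 0.4). The *cxcl8a* to cxcl8b.1 ratio averaged 1.78 ± 0.75 in *zbtb24* mutants and 1.44 ± 0.40 in WT (SD, n = 3 each, two-sided exact permutation p = 0.7). The ratios ranged over 0.954 to 2.41 in *zbtb24* mutants and 1.06 to 1.86 in WT, and 3 libraries a genotype cannot show whether the 2 genes fell by the same factor. Another copy, cxcl8b.3, had 2.78 ± 0.87 FPKM in *zbtb24* mutants against 3.53 ± 0.17 FPKM in WT (SD, n = 3 each, log2 change -0.34 ± 0.22, SE, limma adjusted p = 0.323).

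The gene table gives the symbol SOCS3 to *socs3a* and to a second identifier, ENSDARG00000026611. That copy was far more abundant, at 80.3 to 114.5 times *socs3a* in *zbtb24* mutants and 173.0 to 203.1 times in WT. It had 22.4 ± 5.0 FPKM in *zbtb24* mutants against 16.0 ± 4.9 FPKM in WT (SD, n = 3 each). Its log2 change of 0.50 ± 0.24 did not pass (SE, limma adjusted p = 0.183). Most SOCS3 transcript in these larvae was therefore read from the second copy in every library.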

How the data were processed

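RNA was read from pools of 10 whole larvae, 3 libraries for each of 4 genotypes taken from the sample titles. Per the submitters' processing notes and the study's methods, the authors trimmed reads with Trimmomatic 0.33, mapped them with TopHat2 2.1.1 to GRCz10 and deposited FPKM from Cufflinks 2.2.1 scaled with Cuffnorm. Among low features, the commonest ratio between 2 libraries was shared by 9 to 23 of 38 to 61 features, so depth could not be recovered and precision rests on replicate spread. The fit was limma 3.58.1 in R 4.3.3 (lmFit, eBayes with trend) on log2(FPKM + 0.5), 4 genotype means, 8 residual degrees of freedom, for the 21623 features that averaged 0.5 FPKM or more. P-values were two-sided and Benjamini-Hochberg adjusted over all of them, threshold 0.05. Exact permutation tests went through every split of the libraries with NumPy 2.4.6 in Python 3.11.15. Correlations used 100000 permutations, with ranks and adjustment from SciPy 1.17.1. Symbols came from a gene table that matched 26418 features. Listed genes were named when they passed in *zbtb24* mutants against WT or in the interaction, up to 3 a list by size of change, and IKBKB and mmp23bb were added after their values were seen. The 6 genes and the lists were chosen with earlier results of these data known. The labels do not say whether pools of one genotype came from separate crosses, so p-values measure the spread between these pools. No column of sample values was left unmapped (0).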

Additional observations from a re-analysis of the deposited data

How the results depend on the processing

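Alternatives were a pseudocount of 0.1 or 1, no minimum level or one of 1 FPKM, a replicate block, quantile normalization, median centring, no trend in eBayes, only the compared genotypes, and fits without each library. Of 681 recomputed values of the 6 genes over 36 results, 640 kept direction and side of the threshold, 13 lost the call, 4 gained one and 24 changed sign, all of values that had not passed. All 13 losses were of the only call, *cxcl8a* in *zbtb24* mutants against WT, which was lost in 13 of its 22 alternatives. Part of the 640 was fixed in advance. The exact p of *tnfa* and *socs3a* cannot fall below 0.1. Omitting a library outside the compared genotypes leaves the log2 change as it was, and so do the replicate block, no trend and only the compared genotypes. The count of genes called in *zbtb24* mutants against WT, 1, became 0 with the replicate block (*cxcl8a* adjusted p = 0.0505, limma) and 0 with only the compared genotypes, and was 0 to 1 over the leave-one-out fits. Without a minimum level *cxcl8a* lost its call (limma adjusted p = 0.0566) and *socs3a* gained one. For the averaged effect of *zbtb24* the count, 0, was 0 to 1 over the leave-one-out fits. At a minimum of 1 FPKM *il1b* was not tested. Same-numbered pools are different animals, and the labels do not say whether they share a clutch or batch. The correlation of their deviations averaged 0.0144 (-0.125 to 0.167 over 18 pairs), beside -0.0072 over 36 pairs with other numbers. These averages cannot exclude a shared clutch or batch.

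Quantile normalization turned the log2 change of *il1b* in double against *zbtb24* mutants to 0.000568, of *mmp9* in double mutants against WT to 0.00568 and of the *mmp9* interaction to -0.0105. Leaving out single libraries turned the sign of these log2 changes, whose ranges were, in double against *zbtb24* mutants, -0.30 to 0.18 for *il1b*, -0.23 to 0.080 for *mmp9*, -0.85 to 0.11 for *mmp13a* and -0.084 to 0.087 for *tnfa*. In double against *mda5* mutants they were -0.23 to 0.23 for *cxcl8a* and -0.35 to 0.61 for *mmp13a*. In double mutants against WT they were -0.26 to 0.12 for *mmp9* and -0.075 to 0.89 for *mmp13a*. In *zbtb24* mutants against WT they were -0.18 to 0.20 for *mmp9* and -0.047 to 0.095 for *tnfa*, and for the *mmp9* interaction -0.022 to 0.38.

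Counts over all features moved as well. In *zbtb24* mutants against WT the count of the 6 genes called moved in 10 of 22 alternatives and that of all features in 8. In the other comparisons the count of the 6 genes began at 0 and could not fall. In *zbtb24* mutants against WT, 2502 features were called, 1578 with the replicate block, 221 with only the compared genotypes and 245 to 3477 without single libraries (245 without WT replicate 3). The interaction had 0, and 2161 without WT replicate 2. Double mutants against WT had 87, with 46 under the block, 9 with only the compared genotypes and 25 to 123 without single libraries. Double against *mda5* mutants had 29, with 3 with only the compared genotypes and 13 to 34 without single libraries. The cause of these shifts was not tested. Low levels limit *tnfa* and *socs3a*, for which 3 pools a genotype cannot give an exact p below 0.1.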
